A study of Homo sapiens with 6 samples.

Results

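The cytosolic ribosomal protein genes were followed in MDA-MB-231 cells, an established human triple-negative breast cancer line, after knockdown of the kinase CDK16 or treatment with rebastinib (Reb). They were taken as every row whose symbol is RPL or RPS followed by a number, with or without an A, L, X, L1 or AL ending, together with RPSA, RPLP0, RPLP1 and RPLP2. This gave 86 of 41471 gene symbols in the knockdown table and the same 86 of 34157 in the rebastinib table. Of these, 46 are core genes of the large subunit, 31 are core genes of the small subunit and 9 are paralogs, close relatives of a core gene at another locus. RACK1 and the fusion gene FAU, which joins a ubiquitin-like part to a ribosomal protein, also encode ribosomal proteins but fall outside the naming rule.

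The knockdown experiment held 3 stable lines made by lentivirus from MDA-MB-231 cells, infected and then sorted by flow cytometry: scramble, which carries a control hairpin, and CDK16-sh1 and CDK16-sh2, which carry different hairpins against CDK16. The rebastinib experiment held unmodified MDA-MB-231 cells given for 48 h the DMSO vehicle, Reb at 1 µM or Reb at 5 µM. Rebastinib is a kinase inhibitor developed against BCR-ABL that also inhibits TIE2, and the study used it as an inhibitor of CDK16. Each condition was sequenced as 1 library, so no difference below has a replicate check, and intervals cover counting error only.

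Ribosomal proteins are made in near equal numbers and assembled with ribosomal RNA into the small subunit, which reads the mRNA, and the large subunit, which joins the amino acids. Their mRNAs are among the most abundant of a growing cell, and most start with a C followed by a run of pyrimidines, the 5′ terminal oligopyrimidine (TOP) motif, through which mTOR and LARP1 set how much of them is translated. MYC is a known activator of their transcription, and free RPL5 and RPL11 bind MDM2 and so stabilise p53.

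Library totals were 25838443 to 31955119 counts in the knockdown experiment and 37655548 to 50303269 in the rebastinib experiment. CDK16 gave 3223 counts in scramble. It gave 1360 with the first hairpin (log2 fold change −1.52) and 846 with the second (−1.82). In DMSO, Reb 1 µM and Reb 5 µM it gave 4996, 4609 and 2797 counts, with log2 fold changes of −0.14 and 0.27 under the TMM scaling described below and of −0.09 and −0.42 with library totals, so its direction at 5 µM turned with the scaling. Most markers looked at matched the labelled line. VIM stood at 177 to 833 RPKM (reads per kilobase of exon, scaled to the library total) over the 6 libraries. CD44, AXL and MSN stood at 31.8 RPKM or more. ESR1 stayed at or below 0.0227 RPKM and the liver gene ALB at or below 0.0115 RPKM. PGR, CDH1, KRT5 and the leukocyte gene PTPRC stayed at or below 0.174 RPKM, and the endothelial gene PECAM1 at or below 0.395. GATA3, expected low or absent, stood at 0.596 to 3.75 RPKM. CAV1, expected high, stood at 56.0 RPKM in scramble, 26.7 in DMSO and 3.95 in Reb 5 µM.

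The family took a larger share of the library under both hairpins and at the higher dose of Reb. The 86 rows held 2.93% of the counts in scramble (95% Clopper-Pearson interval 2.93 to 2.94%), 4.30% in CDK16-sh1 and 3.77% in CDK16-sh2. They held 2.97% in DMSO, 2.73% in Reb 1 µM and 4.39% in Reb 5 µM (4.38 to 4.39%). Each treated library thus stood above its control except Reb 1 µM, which stood below. The 37 mitochondrially encoded rows moved as well, with 11.3%, 10.4% and 16.2% of the counts in the 3 knockdown libraries and 7.19%, 8.30% and 16.4% in the 3 rebastinib libraries. With those rows taken out of the total, the family held 3.30%, 4.80% and 4.50% in scramble, CDK16-sh1 and CDK16-sh2, and 3.20%, 2.97% and 5.25% in DMSO, Reb 1 µM and Reb 5 µM. The order of the libraries within each experiment was the same with either total. What part the mitochondrially encoded rows had in the family's share was not tested, and in bulk RNA fewer cells of a kind and less RNA per cell cannot be told apart.

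**Figure D1:**
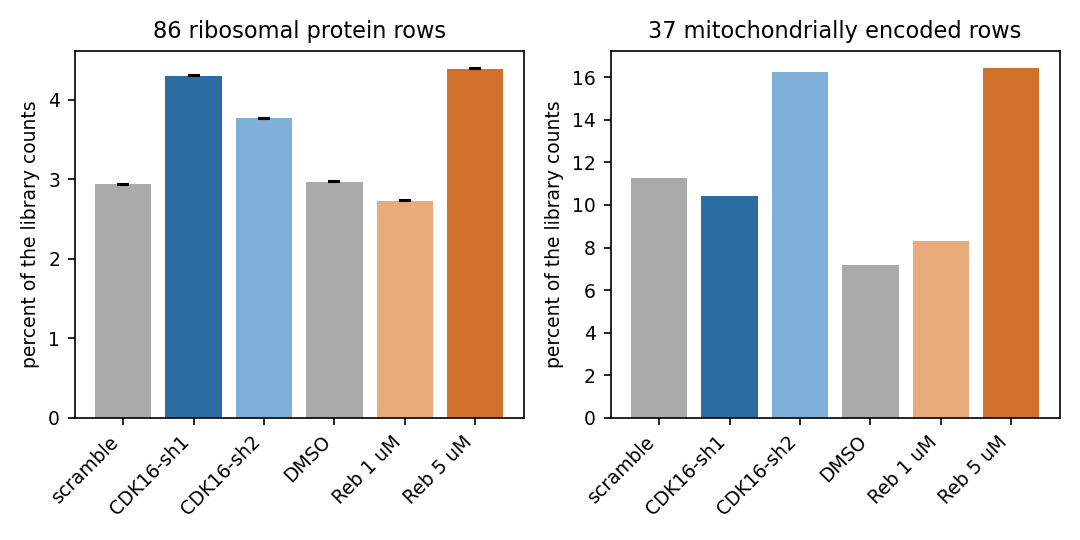
Percent of each library's counts on the 86 ribosomal protein rows (left, with 95% Clopper-Pearson intervals narrower than the line) and on the 37 mitochondrially encoded rows (right), 1 bar per library, both axes from 0. The family stood at 4.30% in CDK16-sh1 and 4.39% in Reb 5 µM against 2.93% in scramble and 2.97% in DMSO.

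Levels in the controls differed widely between members. RPKM divides by the length of all annotated exons of a gene, so it understates members with long rarely used exons. On this per-length scale the 77 core genes ran from 4.61 to 485 RPKM in scramble, with a median of 90.4, and from 3.32 to 782 RPKM in DMSO, with a median of 67.4. RPL13A, a core protein of the large subunit, was highest in scramble at 485 RPKM. It was followed by RPL23A, at the exit of the peptide tunnel, at 433 RPKM and by RPL19, a rim protein of the same exit, at 431 RPKM. The paralog RPL36AL stood at 402 RPKM. In DMSO the highest were RPL23A at 782 RPKM and RPL5, which carries the 5S RNA, at 740 RPKM. RPS29 was the lowest core gene in both controls on this scale, at 4.61 and 3.32 RPKM, over 9783 exonic bases. Divided by the length of 1 annotated transcript instead, 296 bases for RPS29, it ranked 64 and 61 of the 86 members. On that scale RPL19 ranked 1 and RPL23A 11 in scramble, so ranks of level depend on the length used.

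Some members differed strongly between the controls of the experiments. RPS28, at the mRNA exit of the small subunit, had 56.3 RPKM in scramble and 10.3 in DMSO. Over the 77 core genes, 11 differed by at least 2-fold between scramble and DMSO, with a median log2 ratio of −0.36. Experiment and control condition cannot be told apart here, so treated libraries were compared only with their own control.

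Fold changes are log2 differences in CPM, counts scaled to a common library size, after TMM normalisation (trimmed mean of M values) and with a prior count of 2. A gene was tested if it averaged 1 CPM or more over the 3 libraries of its experiment. This kept 83 of the 86 members of 15295 genes in the knockdown experiment and 84 of 15655 in the rebastinib experiment. RPL3L and RPS10L fell out in both and RPL10L in the knockdown experiment.

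Under both hairpins nearly the whole family was above scramble by a similar, moderate amount. All 77 core genes were higher in CDK16-sh1 and 74 in CDK16-sh2, each against the same scramble library. In CDK16-sh1 the 83 members had a median of 0.65 on the log2 scale, beside −0.00 over all genes tested, and in CDK16-sh2 0.55 beside 0.02. The large and small subunits moved alike, with medians of 0.70 and 0.62 for the first hairpin and 0.57 and 0.54 for the second. In CDK16-sh1, 66 of the 77 core genes lay within 0.3 of the core median, against 53 in CDK16-sh2. Because most changes were of this size, few members passed 2-fold. In CDK16-sh1, 1 member was at least 2-fold higher and 0 at least 2-fold lower, where 4.33% and 6.86% of all genes tested were. In CDK16-sh2, 1 was at least 2-fold higher and 1 lower, where 2.2% and 7.62% of all genes were. At 1.5-fold, 46 of 83 members were higher in CDK16-sh1, where 16.5% of all genes were, and 34 in CDK16-sh2, where 11% of all genes were. Lower by that much were 1 and 2 members, where 18.8% and 16.8% of all genes were. The 34 became 14 with library totals or the authors' RPKM and 11 with a trend on level and exonic length removed. The 46 became 23 with that trend removed and 22 with a trend on GC content and transcript length removed. The share of all genes past 1.5-fold in these settings is not given here. Relative to the median of all genes, members in CDK16-sh2 stood 0.53 higher with totals, 0.52 with RPKM and 0.22 with the level trend removed. In CDK16-sh1 they stood 0.42 higher with the level trend removed and 0.39 with the GC trend removed.

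**Figure D2:**
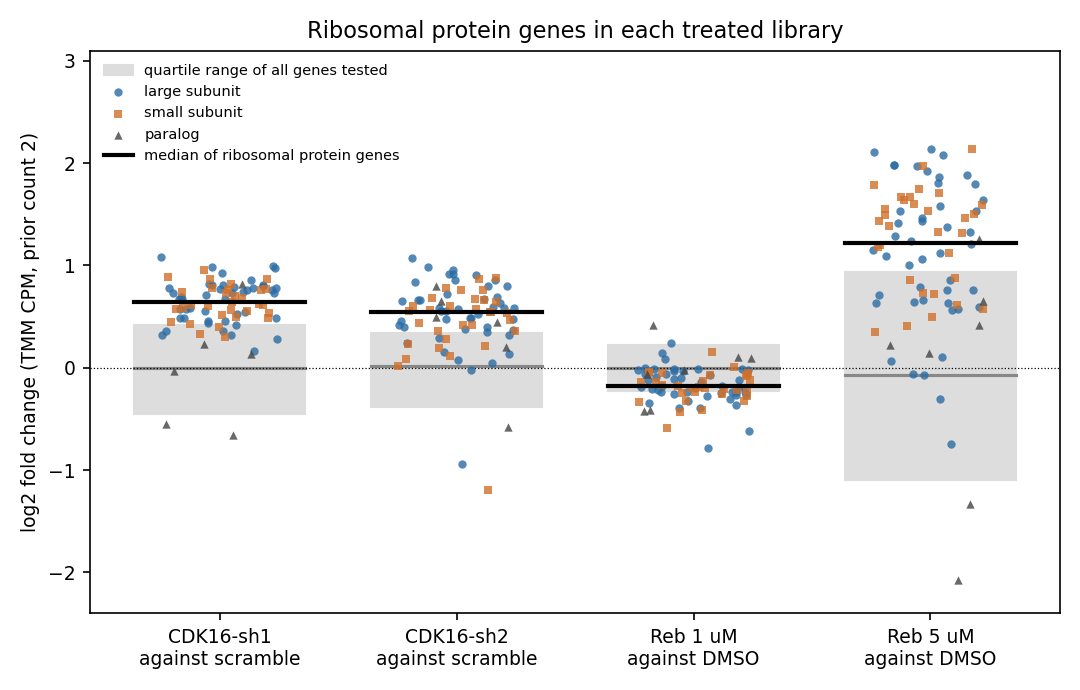
Log2 fold change of each ribosomal protein gene tested against its own control, 1 column per treated library, with points for single genes (circles large subunit, squares small subunit, triangles paralogs), a black line at their median and a grey box for the quartile range of all genes tested. The family lay at a median of 0.65 and 0.55 under the hairpins, −0.18 in Reb 1 µM and 1.22 in Reb 5 µM.

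RPL15, a large-subunit protein whose loss causes Diamond-Blackfan anaemia, gave 4472, 11477 and 7783 counts in scramble, CDK16-sh1 and CDK16-sh2. Both treated libraries were well above scramble, and its log2 fold change of 1.08 in CDK16-sh1 (counting interval 1.03 to 1.13) was the highest of the family there. It was 0.91 in CDK16-sh2. RPL15 pseudogene rows also had 1516, 3479 and 2914 counts in the same libraries, and reads could be divided between them and RPL15. RPL29, a heparin-binding protein of the large subunit, gave 5813, 13998 and 6987 counts, with log2 fold changes of 0.99 and 0.37. RPL18, a large-subunit protein, gave 3584, 8609 and 4901 counts, with 0.99 and 0.56. Both were highest in CDK16-sh1. RPL27A, of the large subunit, gave 9129, 18300 and 13947 counts, with log2 fold changes of 0.73 and 0.72 that were close under both hairpins. The same held for RPS27, of the small subunit, with 2117, 4345 and 3367 counts and 0.76 and 0.78.

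RPL36A, an X-linked gene, was the member 2-fold higher in CDK16-sh2. It gave 7335, 11364 and 14341 counts in the same order, with log2 fold changes of 0.35 and 1.07. The overlapping readthrough row RPL36A-HNRNPH2 held 8094, 11587 and 15367 counts, nearly the counts of RPL36A itself, so the rows share reads and are not separate observations. The same was true of RPL17 and RPS10 with their readthrough rows. RPL26, at the rim of the peptide exit, gave 10186, 20197 and 18731 counts, with 0.71 and 0.99. RPL5 gave 29121, 47127 and 52389 counts, with 0.42 and 0.95, and its partner RPL11 gave 7667, 15937 and 11464 counts, with 0.78 and 0.69. Both members of the 5S particle were thus above scramble under both hairpins.

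RPS27A and RPLP1 stood apart from the family in CDK16-sh2. RPS27A, which encodes ubiquitin fused to a small-subunit protein, gave 4942, 9171 and 2007 counts. It was above scramble with the first hairpin, at a log2 fold change of 0.62, and below it with the second, at −1.19 (counting interval −1.27 to −1.12). RPLP1, a protein of the stalk that recruits elongation factors, gave 8604, 15310 and 4167 counts. Its log2 fold changes were 0.55 and −0.94 (counting interval −0.99 to −0.89). Their pseudogene rows held at most 9 counts in these libraries. The other stalk genes did not share the lower value: RPLP0, the stalk base, had log2 fold changes of 0.67 and 0.42, RPLP2, the partner of RPLP1, 0.77 and 0.46, and RPL12, beside the base, 0.55 and 0.86. RPL23A, at −0.03, was the only other core gene below scramble in CDK16-sh2 (0.32 in CDK16-sh1). With library totals in place of TMM, 66 rather than 74 core genes stood above scramble in CDK16-sh2, as RPL10, RPL39 and RPS16 (0.07, 0.13 and 0.01 under TMM) and 5 others turned negative.

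**Figure D3:**
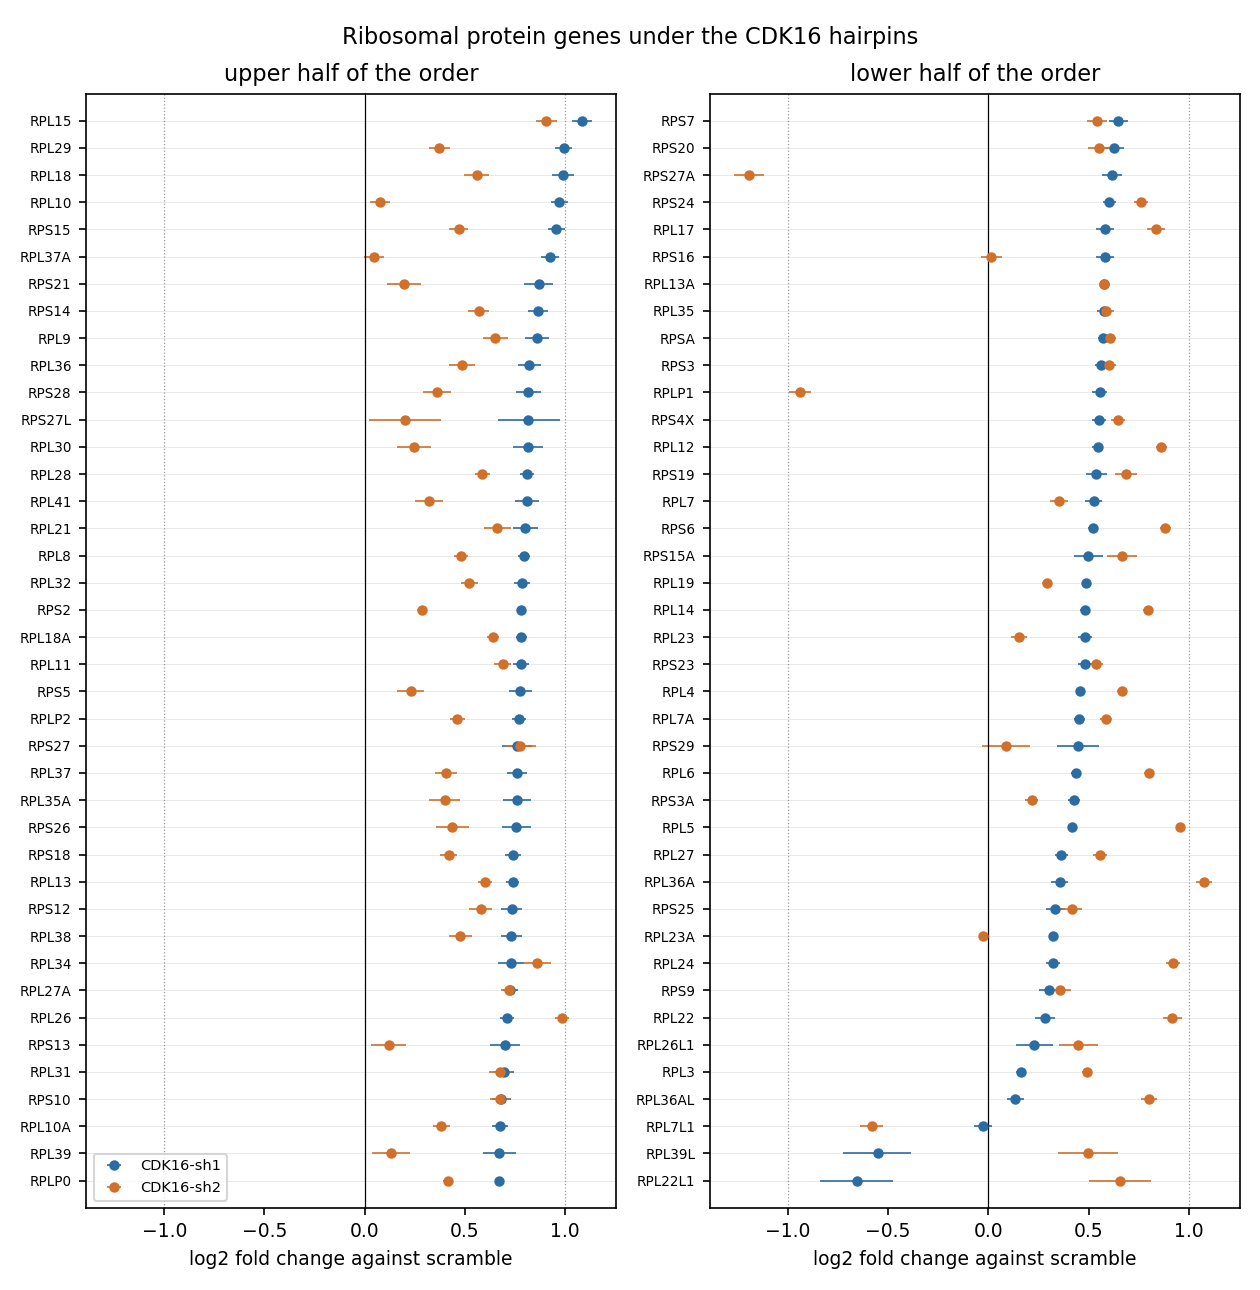
Log2 fold change against scramble of 80 of the 83 members tested in the knockdown experiment, ordered by CDK16-sh1 from top left to bottom right, with points for both hairpins and lines for 95% counting intervals. RPS27A and RPLP1 lie at −1.19 and −0.94 in CDK16-sh2 and at 0.62 and 0.55 in CDK16-sh1.

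Grouped by place in the ribosome, members of a site did not keep to 1 value. The peptidyl transferase centre genes stood at 0.16 for RPL3, 0.97 for RPL10 and 0.79 for RPL8 in CDK16-sh1, and at 0.49, 0.07 and 0.48 in CDK16-sh2. RPL3 was thus the lowest core gene with the first hairpin and near the middle with the second. The tunnel wall genes RPL4, RPL17 and RPL39 stood at 0.46, 0.58 and 0.67 in CDK16-sh1, and at 0.67, 0.84 and 0.13 in CDK16-sh2. At the tunnel rim, RPL19, RPL31, RPL35, RPL26 and RPL23A were at 0.49, 0.69, 0.58, 0.71 and 0.32 in CDK16-sh1, and at 0.29, 0.67, 0.59, 0.99 and −0.03 in CDK16-sh2. Of the mRNA channel and decoding genes, RPS2, RPS3, RPS15 and RPS23 were at 0.78, 0.56, 0.95 and 0.48 in CDK16-sh1, and at 0.28, 0.60, 0.47 and 0.53 in CDK16-sh2. RPS6, the S6 kinase substrate, stood at 0.52 and 0.88, and RPSA, also a laminin receptor, at 0.57 and 0.61. All 19 core genes mutated in Diamond-Blackfan anaemia were above scramble under both hairpins, with medians of 0.68 and 0.59, but RPS29, at 0.09 in CDK16-sh2, turned to −0.11 with library totals.

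Other genes help to read the family's median. Mitochondrial ribosomal protein genes, made for a separate ribosome, had medians of 0.39 and 0.37 over 78 genes, and proteasome subunits 0.30 and 0.23 over 37 genes. The 33 TOP genes that are not members had medians of 0.19 and 0.34, with 23 and 29 above scramble. Short transcripts were higher as a class: the shortest quintile of other genes had medians of 0.30 and 0.16, and the quintile highest in GC 0.42 and 0.11. After a trend on GC content and transcript length was removed, the members' medians were 0.42 and 0.46, and 79 and 77 of 83 stayed above zero. MYC gave 2853, 11280 and 6340 counts, log2 fold changes of 1.71 and 1.26. MTOR, with −0.48 and −0.28, and the S6 kinase gene RPS6KB1, with −0.60 and −0.75, were below scramble, and LARP1 stood at −0.04 and 0.37. The other S6 kinase gene, RPS6KB2, was above it, at 0.49 and 0.20. The 26 regulators of ribosomal protein synthesis tested, MYC and MTOR among them, had medians of −0.03 and 0.13. Above scramble were 12 and 15 of them, where 49.9% and 51.4% of all genes were. FAU stood at 0.68 and 0.47, and RACK1 at 0.80 and 0.34. Whether MYC, the GC content or the transcript length had a part in the members' difference was not tested.

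In Reb 1 µM the family was slightly below DMSO. The median log2 fold change of 84 members was −0.18, beside 0.00 over all genes, and 5 of 77 core genes were above DMSO. None passed 2-fold in either direction, where 1.28% of all genes were higher and 1.92% lower. At 1.5-fold, 0 members were higher and 3 lower, where 6.09% and 7.19% of all genes were. The 3 were RPL28, a large-subunit protein, with 20207 counts in DMSO and 11932 in Reb 1 µM (−0.78), RPL10, which shapes the peptidyl transferase centre, with 6308 and 4174 counts (−0.62), and RPS28, with 1101 and 742 counts (−0.59). With library totals 1 of the 3 stayed past 1.5-fold, RPL28 at −0.73, while RPL10 and RPS28 were at −0.57 and −0.54. At the other end, the paralog RPL26L1 had 3032 and 4111 counts (0.42) and RPL22 had 18727 and 22457 (0.24). The core genes were close together, 71 of 77 within 0.3 of the core median. Across the core genes the log2 fold change at this dose correlated with GC content (r = −0.46 over 77 genes of the same pair of libraries), and the quintile of other genes highest in GC had a median of −0.19 while the lowest had 0.14. The part of GC content in the members' difference was not tested. With library totals the members' median was −0.13 and 17 of 77 core genes were above DMSO.

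In Reb 5 µM most members were far above DMSO, but not as 1 block. The median log2 fold change was 1.22, beside −0.07 over all genes, and 73 of 77 core genes were higher. At least 2-fold higher were 51 of 84 members, where 23.6% of all genes were, and 2 were at least 2-fold lower, where 27.2% were. At 1.5-fold, 67 were higher and 3 lower, where 33.1% and 36.7% of all genes were. The core genes were spread widely, with a quartile range of 0.92 against 0.19 in Reb 1 µM, and 29 of 77 lay within 0.3 of the core median. The small subunit had a median of 1.44, with 31 of 31 core genes higher, and the large subunit 1.18, with 42 of 46 higher.

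Scaling weighed more here than elsewhere. With library totals in place of TMM, the median of all genes tested shifted by −0.68 and the members' median was 0.53. Relative to all genes the members stood 1.28 higher with totals and 1.29 with TMM. With totals, 60 of 84 members were above DMSO and 16 passed 2-fold higher. Of all 15655 genes tested, 1835 were at least 2-fold higher with totals and 6792 at least 2-fold lower. Other abundant genes were also higher: the highest 2% of other genes by level had a median of 0.74, with 126 of 312 at least 2-fold higher. This set includes mitochondrially encoded rows, and its highest value was 3.69 for MT-RNR2. With a trend on level and exonic length removed, the members' median was 0.59, beside −0.00 over all genes. Then 18 of 84 members were at least 2-fold higher, where 3673 of all 15655 genes were. Members thus passed 2-fold no more often than all genes did once that trend was removed. The trend was fitted over all genes tested, members among them. With a trend on GC content and transcript length removed instead, the members' median was 0.80, beside 0.01 over all genes. Of the 53 members past 2-fold in either direction under TMM, 35 then stayed past it. Of the 13202 genes with a transcript length, 3104 were then at least 2-fold higher and 3088 lower.

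**Figure D4:**
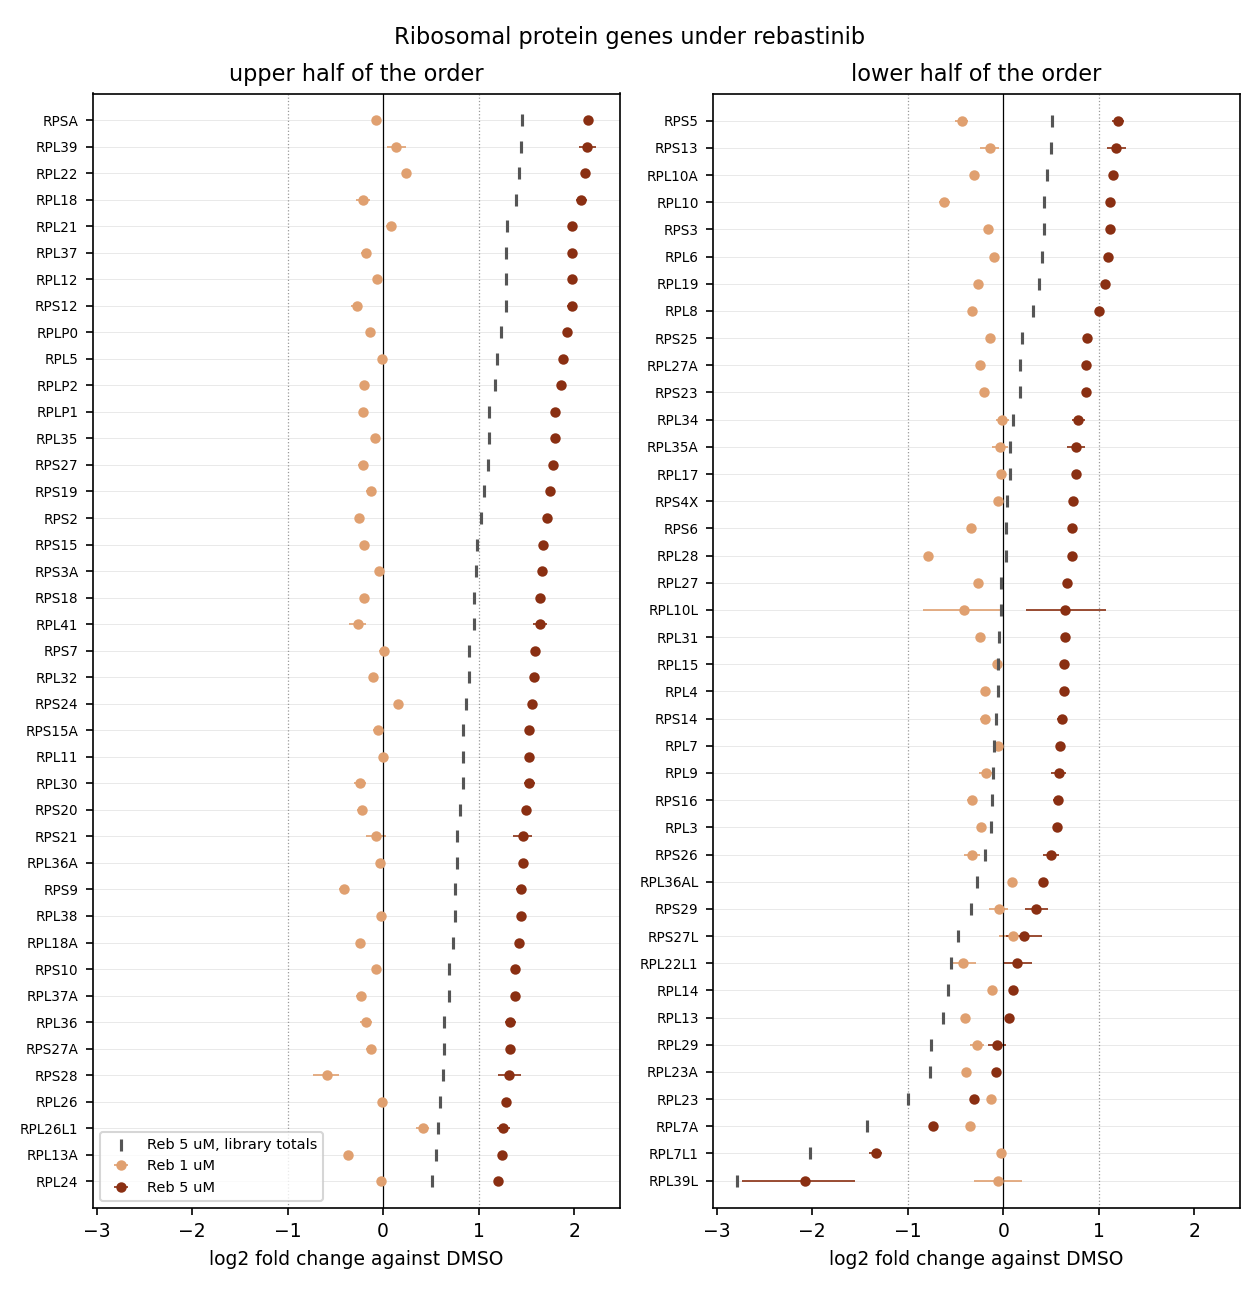
Log2 fold change against DMSO of 81 of the 84 members tested in the rebastinib experiment, ordered by Reb 5 µM from top left to bottom right, with points for both doses, lines for 95% counting intervals and upright ticks for Reb 5 µM scaled by library totals. At 5 µM the members run from 2.14 for RPSA to −2.07 for RPL39L, while at 1 µM they stay between −0.78 and 0.42.

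RPSA gave 24037 counts in DMSO, 23210 in Reb 1 µM and 49282 in Reb 5 µM, with log2 fold changes of −0.07 and 2.14. RPL39, a short protein of the tunnel wall, gave 1569, 1757 and 3202 counts, with 0.14 and 2.14. RPL22, a large-subunit protein that also binds other RNAs, gave 18727, 22457 and 37513 counts, with 0.24 and 2.11. Each was 2-fold higher in raw count in the Reb 5 µM library although that library was the smallest of the experiment. RPL18 gave 3428, 3009 and 6713 counts (−0.21 and 2.08), RPL21, a large-subunit protein, 6533, 7029 and 11974 (0.08 and 1.98), and RPL5 107580, 108397 and 183935 (−0.01 and 1.88). RPL5 alone took 7.21% of the family's counts in DMSO and 11.1% in Reb 5 µM. RPL23A went the other way, from 7.45% to 2.96%.

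A few core genes did not follow. RPL7A, a large-subunit gene that hosts snoRNAs, gave 26976 counts in DMSO, 21598 in Reb 1 µM and 7487 in Reb 5 µM, with log2 fold changes of −0.34 and −0.74 (counting interval −0.78 to −0.70). It was the lowest core gene at 5 µM and below DMSO at both doses. RPL23, of the large subunit, gave 19306, 18006 and 7253 counts, with −0.12 and −0.30. RPL23A gave 111138, 86180 and 48941 counts, with −0.39 and −0.08, and RPL29 3163, 2658 and 1403, with −0.27 and −0.06. These 4 were the core genes below DMSO at 5 µM. With library totals 18 core genes were, RPL15, RPL3, RPL4 and RPS26 among them (0.64, 0.56, 0.63 and 0.50 under TMM).

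By place in the ribosome, the stalk was uniformly high at 5 µM. RPLP0, RPLP1, RPLP2 and RPL12 had log2 fold changes of 1.93, 1.80, 1.87 and 1.97, all past 2-fold, and −0.14, −0.22, −0.20 and −0.06 at 1 µM. RPL5 and RPL11 of the 5S particle stood at 1.88 and 1.53. The peptidyl transferase genes RPL3, RPL8 and RPL10 stood at 0.56, 1.00 and 1.12, and the tunnel wall genes RPL4, RPL17 and RPL39 at 0.63, 0.76 and 2.14. At the tunnel rim RPL35, RPL26, RPL19 and RPL31 stood at 1.80, 1.29, 1.07 and 0.65, and RPL23A at −0.08. The mRNA exit genes RPS28, RPS26 and RPS14 stood at 1.32, 0.50 and 0.61. The decoding genes RPS2, RPS15, RPS27A, RPS3 and RPS23 stood at 1.71, 1.67, 1.33, 1.12 and 0.86. RPS6 was at 0.72, and RPS4X, the X-linked form of a gene with a Y-linked copy, at 0.73. The core genes that hold snoRNAs in their introns, 24 in all, had a median of 1.37 and the other 53 a median of 1.32.

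Several paralogs differed from their parents at 5 µM. RPL39L, a relative of RPL39 best known from testis, gave 262 counts in DMSO, 256 in Reb 1 µM and 28 in Reb 5 µM, with a log2 fold change of −2.07 at 5 µM (counting interval −2.74 to −1.55), where RPL39 stood at 2.14. Under the hairpins RPL39L gave 645, 532 and 846 counts, with −0.55 and 0.50. RPL7L1, which acts in ribosome assembly rather than in the finished ribosome, gave 10789, 10824 and 1983 counts, with −0.02 and −1.34, where RPL7 stood at −0.06 and 0.59. Under the hairpins RPL7L1 gave 6942, 8252 and 4305 counts, with −0.03 and −0.58. Both were the members at least 2-fold lower in Reb 5 µM.

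RPL22L1, which can replace RPL22, gave 586, 450 and 858 counts in scramble, CDK16-sh1 and CDK16-sh2, below scramble with the first hairpin (−0.65) and above it with the second (0.66). RPL22 itself stood at 0.28 and 0.92. In the rebastinib libraries RPL22L1 gave 1024, 778 and 526 counts, with −0.42 and 0.15, against 0.24 and 2.11 for RPL22. RPL26L1 stood at 0.42 and 1.26 at the 2 doses, near RPL26 (1.29) at the higher. RPL36AL stood at 0.09 and 0.42 and RPS27L, a p53 target, at 0.11 and 0.22, where their parents RPL36A and RPS27 reached 1.46 and 1.78 at 5 µM. With library totals RPL22L1, RPL36AL and RPS27L turned to −0.54, −0.27 and −0.47 at 5 µM. RPL10L, a copy of RPL10 expressed in testis, had 0 counts in all 3 knockdown libraries and 116, 88 and 85 in the rebastinib libraries. RPL3L, known from muscle, had at most 14 counts and RPS10L at most 5 in any library.

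**Figure D5:**
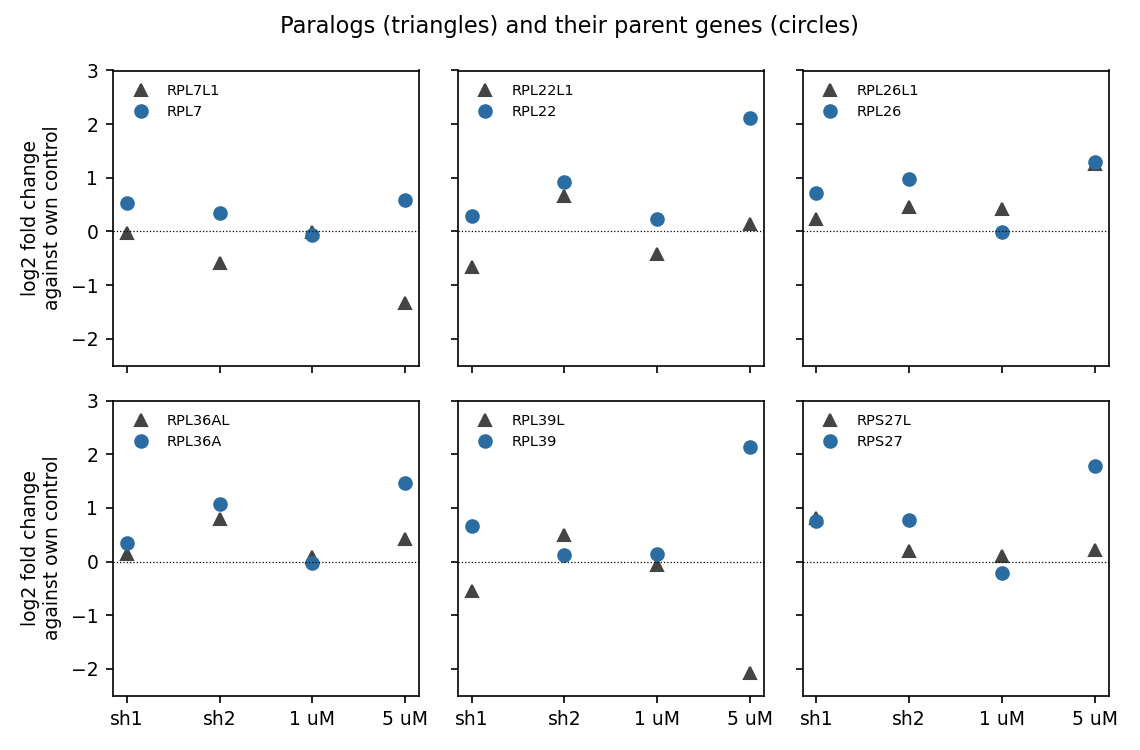
Log2 fold change against the own control of 6 paralogs (triangles) and their parent genes (circles) in CDK16-sh1, CDK16-sh2, Reb 1 µM and Reb 5 µM, 1 panel per pair. At 5 µM RPL39L lies at −2.07 and RPL39 at 2.14, while RPL26L1 and RPL26 lie at 1.26 and 1.29.

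Start sites of members that differed at 5 µM were read from RefSeq promoters on GRCh38.p14, which hold an entry for 68 of the 86 members, 62 of them core. Each 30-base window below runs from 15 bases before the annotated start to 15 bases from it onward on the gene's own strand, and capitals mark a C followed by at least 4 more C or T, its C within 5 bases of the start. The first set opens with the 5 highest fold changes at 5 µM, followed by RPLP1 and RPS27A, which stood apart in CDK16-sh2. For RPS27A the start with a tract is printed, and its other annotated starts have none.
RPSA, chr3:39406705-39406734, plus strand: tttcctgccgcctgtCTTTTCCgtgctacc
RPL39, chrX:119791616-119791645, minus strand: ttcttccgccagCTTCCCTCCTCTTCCTTT
RPL22, chr1:6199581-6199610, minus strand: tagttcgctcaCCTCCCTTTCTaactccgc
RPL18, chr19:48619164-48619193, minus strand: accccagcccgttCTCTCTTTCCggacctg
RPL21, chr13:27251543-27251572, plus strand: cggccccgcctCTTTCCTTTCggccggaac
RPLP1, chr15:69452803-69452832, plus strand: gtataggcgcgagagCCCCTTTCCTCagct
RPS27A, chr2:55232673-55232702, plus strand: tgcgcggcgttCTTCCTTTTCgatccgcca

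The second set shows core genes below DMSO at 5 µM and paralogs that lay far from their parents there, as examples. RPL36AL, with a tract, and RPS27L, without one, also lay far from their parents and are not printed. RPL39L has no entry among the promoters.
RPL7A, chr9:133348203-133348232, plus strand: ccacaattccCTTTCCTTTCTCTCTCCTCC
RPL29, chr3:51995881-51995910, minus strand: caccgcagccCCTTTCTCTTCCggttctag
RPL22L1, chr3:170870181-170870210, minus strand: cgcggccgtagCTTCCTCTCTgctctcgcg
RPL7L1, chr6:42879601-42879630, plus strand: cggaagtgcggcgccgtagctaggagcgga

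The highest core genes and RPL7A, the lowest, carried the tract alike, and RPL7L1 had none in this window. A gene with several annotated starts was counted if any start had the tract. It was found in 53 of 62 core genes (85.5%), in 2 of 6 paralogs, in 21 of 25 other TOP genes and in 25.2% of 27305 genes. In Reb 5 µM the 53 core genes with the tract had a median of 1.33 on the log2 scale and the 9 without it 0.67. For the first hairpin these medians were 0.68 and 0.58, for the second 0.56 and 0.65, and for Reb 1 µM −0.18 and −0.10. These differences between genes with and without the tract were not tested. In the 300-base promoters, CCGGAAGT, the ETS family motif, was found on either strand in 9 core genes (14.5%) against 4.95% of all genes, and AAGATGGC, the YY1 motif, in 6 (9.68%) against 3.52%. TATAAA, searched 35 to 20 bases before the start on the gene's strand, was in 2 core genes (3.23%) against 2.8%. These are matches of letters and not bound sites.

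The pathway around the family was uneven in Reb 5 µM. The counts that follow stand beside 23.6% of all genes tested at least 2-fold higher and 27.2% lower. Of the 33 other TOP genes 23 were above DMSO and 17 at least 2-fold higher, with a median of 1.01, while the median was −0.09 in Reb 1 µM. EIF3H and EIF3E, subunits of an initiation factor, stood at 2.49 and 1.77, and FAU at 1.52, whereas HNRNPA1, an RNA-binding protein, stood at −2.20 and RACK1 at −0.37. Among the regulators, 9 of 26 were at least 2-fold higher and 5 at least 2-fold lower, not far from the shares over all genes. LARP1 gave 17014, 16664 and 43985 counts (2.48 at 5 µM) and RHEB, the activator of mTOR, 2338, 2419 and 8862 (3.03), while MTOR gave 3695, 2810 and 401 (−2.09). MYC gave 4956, 2890 and 5973 counts, below DMSO at 1 µM (−0.80) and above it at 5 µM (1.38). The 30 initiation factors had a median of 0.22, and the 78 mitochondrial ribosomal protein genes −0.00. Of 23 chaperones and late assembly factors of ribosomal proteins, 10 were at least 2-fold higher, with NMD3, the export adaptor of the large subunit, at 3.14, and 2 lower, GRWD1, a chaperone of RPL3, at −1.91 and BYSL, a small-subunit assembly factor, at −1.79.

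No member was called when both treated libraries of an experiment were fitted together against the control. This pooled fit counts the difference between the hairpins or between the doses as its spread. CDK16, at −1.52 and −1.82 under the hairpins, was not called by it either. The lack of calls therefore does not show that members were unchanged. In edgeR's quasi-likelihood fit, with an adjusted p of at most 0.05 and a change of at least 2-fold, 0 of 83 members were called in the knockdown experiment, where 0% of all genes were called in either direction. In the rebastinib experiment 0 of 84 were called, where 0.0703% of all genes were called higher and 0.00639% lower. The smallest adjusted p among members was 0.9997 in the knockdown experiment, and 0 members had an unadjusted p under 0.05 in either experiment. DESeq2's Wald test gave 0 adjusted calls among members in both, with 1 member at an unadjusted p under 0.05 in the knockdown experiment and 0 in the rebastinib experiment. A further edgeR fit used log2 of (Reb dose in µM + 1) as a linear term. Its 2-fold limit was set on the fitted change at the highest dose. It called 30 of 84 members higher and 0 lower, where 13.3% and 11.1% of all genes were called. That fit counts the departure of 3 libraries from a straight line on this log scale as its spread. It is therefore no replicate check.

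Over the 83 members tested in both experiments, the log2 fold changes in CDK16-sh1 and Reb 5 µM had r = 0.43 and rho = 0.19, given as a description of genes measured in the same libraries. The other pairs of a hairpin and a dose had r between −0.18 and 0.15. The 83 include 6 paralogs. In CDK16-sh1 and Reb 5 µM, RPL39L stood at −0.55 and −2.07 and RPL7L1 at −0.03 and −1.34. Values of r over the core genes alone are not given here.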

How the data were processed

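MDA-MB-231 RNA was made into libraries with a stranded mRNA kit and sequenced on a HiSeq X 10. The submitters' processing notes name Trimmomatic, featureCounts, Subread 1.5.1 and GRCh38, and the aligner is not given in the sources used here. The deposited tables hold whole-number counts per gene symbol and RPKM that the authors computed from them over each gene's summed exon length. Whether counting used strand is not given in the sources used here.

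Counts were analysed in R 4.3.3 with edgeR 4.0.16 (TMM scaling, genes averaging 1 CPM or more, prior count 2 and a fold threshold of 2 or 1.5). Each treated library was compared with its own control, without a p-value. A pooled quasi-likelihood fit (edgeR, Benjamini-Hochberg adjustment, limit 0.05) set both treated libraries against the control. DESeq2 1.42.0 was an alternative. Library depth was 25838443 to 50303269 counts, and intervals are Clopper-Pearson at 95%. Transcript length and GC content came from GENCODE 29, with values for 12940 of 15295 and 13202 of 15655 genes tested, and promoters from RefSeq. Named members are all paralogs with their parents, extremes of RPKM and of log2 fold change by library and experiment, the largest changes past 2-fold and role groups of at most 5 genes, and others are named in flips or overlaps. Single values of a few genes are not reported here, though counts and medians include them. Members and gene lists were chosen with earlier results of these data known.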

Additional observations from a re-analysis of the deposited data

Results flagged for a closer look

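The members' median log2 fold change was −0.18 in Reb 1 µM and 1.22 in Reb 5 µM, on opposite sides of DMSO, a comparison in which both doses share the DMSO library. RPL10 went from −0.62 to 1.12, RPL28 from −0.78 to 0.72 and RPS28 from −0.59 to 1.32 between the same libraries, each at least 1.5-fold below DMSO at the lower dose and above it at the higher. With library totals RPL10 and RPS28 stood at −0.57 and −0.54 at the lower dose, short of 1.5-fold, and RPL28 at 0.03 at the higher. Between the hairpins, RPS27A stood at 0.62 with the first (CDK16-sh1) and −1.19 with the second (CDK16-sh2), whereas RPL22L1 stood at −0.65 and 0.66. With 1 library per condition these differences between doses and between hairpins were not tested.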

How the results depend on the processing

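Values are for CDK16-sh1, CDK16-sh2, Reb 1 µM and Reb 5 µM in that order. The members' median was 0.62, 0.35, −0.13 and 0.53 with library totals and the same with the authors' RPKM plus 0.1. It was 0.45, 0.29, −0.0914 and 0.59 with a trend on level and exonic length removed, and 0.42, 0.46, −0.0929 and 0.80 with a trend on GC content and transcript length removed, an alternative chosen after seeing the data. Core genes gave 0.67, 0.56, −0.18 and 1.32, and members without a readthrough partner (also added later) 0.66, 0.54, −0.18 and 1.21. DESeq2 size factors gave 0.54 in CDK16-sh2 and 1.29 in Reb 5 µM, a minimum of 10 CPM gave 1.25 in Reb 5 µM, and no filter gave −0.18 in Reb 1 µM. No median changed sign under these settings.

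Members 2-fold higher in Reb 5 µM were 16 with library totals or RPKM and 18 with the level trend removed, against 51. The count over all 15655 genes was 1835 with library totals, 1734 with RPKM and 3673 with that trend removed, against 3695. With the GC trend removed, 35 of the 53 members past 2-fold in either direction stayed past it. Of the 13202 genes with a transcript length, 3104 were then 2-fold higher and 3088 lower. In CDK16-sh2 members 2-fold higher were 0 with library totals, RPKM, either trend removed or without readthrough partners and 2 with no filter, against 1. Over all 15295 genes tested the count was 152 with library totals, 123 with RPKM and 453 with the level trend removed, against 336. With the GC trend removed it was 305 of the 12940 genes with a transcript length. In CDK16-sh1 members 2-fold higher were 3 with either trend removed and 2 with no filter, against 1. Over all genes the count there was 635 with the level trend removed and 310 with the GC trend removed, against 663. Members 2-fold lower were 2 in CDK16-sh2 with library totals, RPKM or the level trend removed. Over all genes the count there was 1701, 1468 and 910, against 1166. Members 2-fold lower were 2 in Reb 1 µM with no filter, and in Reb 5 µM 0 among core genes and 1 with a minimum of 10 CPM. Counts over all genes with no filter or a minimum of 10 CPM are not given here. At 1.5-fold the counts were 46, 34, 0 and 67 higher, where 16.5%, 11%, 6.09% and 33.1% of all genes were. They were 1, 2, 3 and 3 lower, where 18.8%, 16.8%, 7.19% and 36.7% of all genes were. Reb dose as a linear term, on the scale of log2 of (dose in µM + 1), called 30 members higher, against 0.

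The share of counts was 3.30%, 4.80% and 4.50% in scramble, CDK16-sh1 and CDK16-sh2 and 3.20%, 2.97% and 5.25% in DMSO, Reb 1 µM and Reb 5 µM without the mitochondrially encoded rows. With pseudogene rows added it was 3.01%, 4.42%, 3.86%, 3.01%, 2.77% and 4.44%. The cause of these shifts was not tested. No paired analysis was possible because each condition has 1 library, and leaving out a treated library leaves 1 against 1 with no residual degrees of freedom. Depth is not the limit for most members, but a paralog with 28 counts in 1 library has a wide interval.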

Other observations

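Rows annotated as ribosomal protein pseudogenes, 59 of 641 tested in the knockdown experiment, had medians of 0.92 and 0.16 with the first and second hairpin, beside 0.65 and 0.55 for the members. They held 0.0738%, 0.120% and 0.0911% of the counts in scramble, CDK16-sh1 and CDK16-sh2. In the rebastinib experiment 52 of 457 were tested, with medians of −0.28 at 1 µM and 1.13 at 5 µM. Mitochondrially encoded rows, transcribed inside the organelle, had medians of −0.05 and 0.59 under the hairpins and of 0.23 and 2.01 at the doses of Reb, and all 37 were above DMSO at 5 µM.

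The 10 highest members took 33.1% of the family's counts in scramble, 44.6% in DMSO and 48.0% in Reb 5 µM.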
